A study of Mus musculus with 8 samples.

Results

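Genes that write, erase or read marks on histones and DNA, or that move nucleosomes, were compared in mouse medulloblastoma, between cells sorted as Sox2-positive and as Sox2-negative. The members are all genes whose symbols begin with the names of 15 chromatin families, from the Kdm demethylases to the Kat acetyltransferases, with the Y-linked Kdm5d left out. They were 118 of the 22180 genes measured, taken by the letters of their symbols. The tumours arose in Patched1+/- mice on a CD1 background that carried a Sox2-eGFP reporter from B6 parents, and every mouse had received 3 Gy of ionizing radiation at birth. Animals were over 70 days old and showed signs of a brain tumour when killed. Tumour cells were depleted of CD45-positive and Ter119-positive cells and then sorted into eGFP-positive (Sox2-positive) and eGFP-negative (Sox2-negative) fractions. There were 4 arrays per fraction, and each array held RNA of a pool of 3 tumours, so the p-values measure the spread between pools and not between single animals. Patched1 heterozygosity, irradiation and the reporter are shared by both fractions, and no array of normal cerebellum was analysed here.

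Chromatin modifiers work by adding and removing small chemical groups. Methyltransferases and demethylases set methyl marks on histone tails, acetyltransferases and deacetylases set acetyl marks, and bromodomain and ING proteins bind such marks. Remodelers of the SWI/SNF, CHD and related families use ATP to slide or evict nucleosomes, while Dnmt and Tet enzymes write and oxidize methyl groups on cytosine. In human medulloblastoma several of these genes, among them KMT2D, KDM6A, SMARCA4 and CHD7, are known as targets of mutation. Sirt2 departs from this scheme, because its protein is mostly cytoplasmic. It deacetylates tubulin among other substrates and is abundant in oligodendrocytes and myelin.

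All values are log2 intensities as the authors deposited them, and a difference is the Sox2-positive mean minus the Sox2-negative mean on that scale. A gene was called when its limma p-value was under 0.05 after Benjamini-Hochberg adjustment, made over the whole set of 22180 genes. Arrays correlated at 0.973 to 0.987 within the fractions and at 0.942 to 0.968 between them. Of the oligodendrocyte progenitor markers 10 of 10 measured were higher in Sox2-positive cells, of the astrocyte markers 8 of 11 were higher, and of the granule neuron progenitor markers 10 of 11 were lower. Defining markers of microglia (0 of 10 called by limma, 1 at an unadjusted p under 0.05), and the only red blood cell marker measured, Slc4a1 (difference 0.14), did not pass the test. In RNA from sorted pools, fewer cells of a type and less RNA per cell cannot be told apart.

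The promoters of the 3 members that kept their calls under every alternative and have an entry in the RefSeq table (build GRCm38.p6) are shown to let the sequence at the start of the gene be read beside its change. Each window holds 250 bases before and 50 after the annotated start, read 5′ to 3′ on the gene's strand. Capitals mark matches to the SOX core CATTGT or its reverse complement ACAATG, and to the E-box CAGCTG, searched on both strands. The motifs and the promoters shown were chosen after the values were seen. The windows are chr7:28766502-28766801 (plus strand), chr1:134559928-134560227 (plus strand) and chr6:125039598-125039897 (plus strand).
Sirt2: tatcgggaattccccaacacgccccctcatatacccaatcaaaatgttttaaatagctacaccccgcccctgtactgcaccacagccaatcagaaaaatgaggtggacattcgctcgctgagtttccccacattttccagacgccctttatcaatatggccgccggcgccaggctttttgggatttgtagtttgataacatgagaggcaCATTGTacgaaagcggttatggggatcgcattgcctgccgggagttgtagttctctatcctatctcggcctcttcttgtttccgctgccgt
Kdm5b: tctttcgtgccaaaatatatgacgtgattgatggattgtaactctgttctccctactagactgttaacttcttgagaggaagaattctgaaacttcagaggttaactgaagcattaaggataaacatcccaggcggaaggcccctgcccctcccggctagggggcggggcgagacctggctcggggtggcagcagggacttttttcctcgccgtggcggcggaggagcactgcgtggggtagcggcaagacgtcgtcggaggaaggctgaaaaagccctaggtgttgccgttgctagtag
Ing4: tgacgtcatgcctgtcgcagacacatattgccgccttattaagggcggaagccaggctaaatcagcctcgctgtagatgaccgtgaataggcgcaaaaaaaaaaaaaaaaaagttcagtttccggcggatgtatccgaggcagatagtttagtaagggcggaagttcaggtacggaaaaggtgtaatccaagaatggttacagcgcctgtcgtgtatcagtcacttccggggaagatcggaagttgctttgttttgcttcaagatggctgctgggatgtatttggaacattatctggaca
Sirt2 has 1 SOX core, whose first base lies 41 bases before the annotated start. Kdm5b and Ing4 have no match to either motif in these windows. Among the other called members with an entry, Brd1, which fell, also has a SOX core, 13 bases before its start, and Tet3, which fell, has an E-box. The 3 windows hold 16, 17 and 16 CG dinucleotides. Over the 130 windows of the 95 members with an entry the median was 24 CG dinucleotides, against 7 over all 32851 windows in the table. The SOX core was found in 7.69% of the members' windows and in 12.6% of all windows, and the E-box in 13.8% and 16.3%. A match describes the letters only, and binding was not measured.

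The 12 chromatin genes that passed the test were nearly all lower in Sox2-positive cells, and 1 member stood far from the rest. Of the 118 members 11 fell, 1 rose and 106 did not pass, where 8.47% of all genes were called in either direction. The lower calls are 9.32% of the members, where 2.52% of all genes were called lower. Higher calls were 0.847% of the members against 5.96% of all genes. The median difference was -0.12 for the members and -0.03 for all genes, and 72.0% of members lay below 0 against 58.7% of all genes. The members are brighter than most genes (median level 7.02 against 5.86), so the shares were also taken among brighter genes. Of the 98 members at or above the upper quartile of olfactory and vomeronasal receptor genes (5.80, a guide to dim values) 11.2% were called lower and 1.02% higher, against 3.97% and 9.72% of the 11548 genes at that level, of which 53.9% lay below 0. Most changes were small, as over all genes: 115 of 118 members differed by less than 0.5, where 20921 of all 22180 genes did. Sirt2 was the only member to differ by 1 or more, where 378 of all genes did. The groups did not overlap for 21 members that were lower and 5 that were higher, 17.8% and 4.24% of the members, against 6.07% and 7.63% of all genes. With quantile normalization of the deposited values the split was 19 lower and 2 higher, against 847 and 1282 over all genes. All 11 lower members kept their calls there. With the replicate number as a block 14 members were lower and 3 higher, the latter with Arid5b and Sirt5 added. Leaving out 1 array left 5 to 11 members lower, with 5 without Sox2-negative pool 1, 6 without Sox2-negative pool 2, Sox2-positive pool 3 or Sox2-positive pool 4, and 7 without Sox2-positive pool 2.

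**Figure D1:**
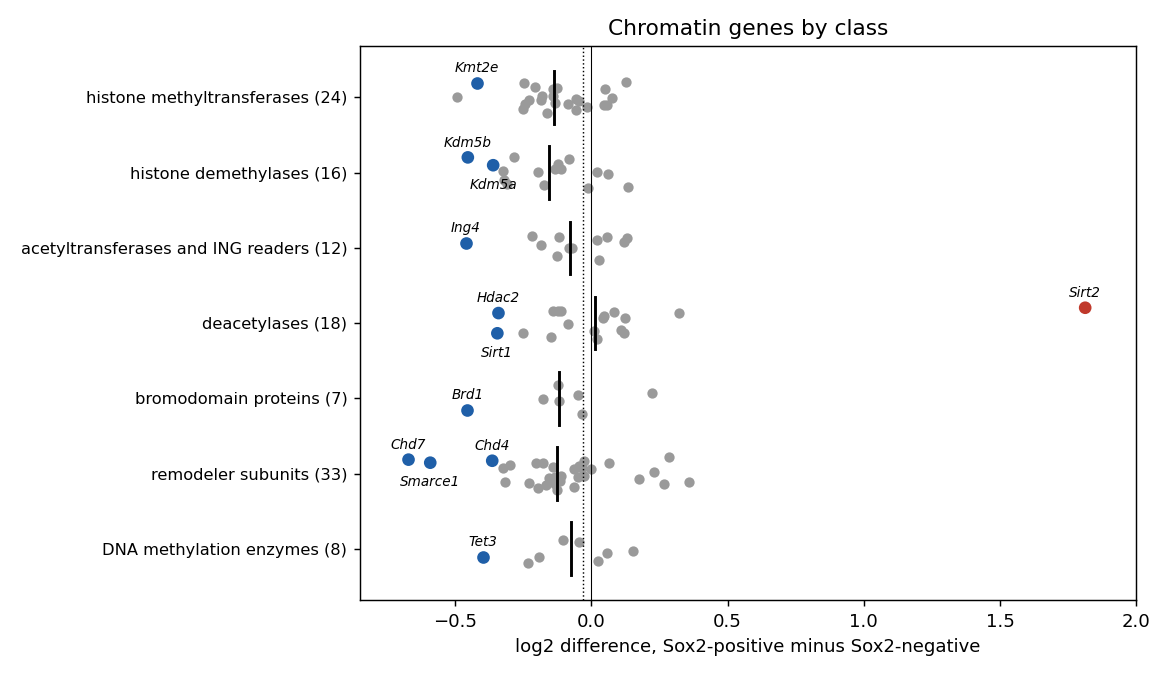
Log2 difference (Sox2-positive minus Sox2-negative, horizontal axis) of the 118 chromatin genes by class, with the number of genes in brackets. Coloured points passed the test (blue lower, red higher), grey points did not, black bars are class medians and the dotted line is the median of all genes. The 11 lower genes are spread over all 7 classes and Sirt2 stands alone at 1.81.

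Among the deacetylases, which remove acetyl groups, 1 of 18 measured rose and 2 fell, with a class median of 0.01. These are 5.56% and 11.1% of the class, against 5.96% and 2.52% of all genes. Sirt2, an NAD-dependent deacetylase, was 3.51-fold higher in Sox2-positive cells. Its log2 values were 9.44, 10.7, 9.91 and 9.90 in Sox2-positive pools 1 to 4 and 7.96, 8.39, 8.26 and 8.04 in Sox2-negative pools 1 to 4. Every Sox2-positive pool thus lay above every Sox2-negative pool (difference 1.81, SE 0.20, adjusted p = 4.37e-05). The Sox2-positive pools spread more (SD 0.50) than the Sox2-negative ones (SD 0.20), with pool 2 highest and pool 1 lowest.

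Some genes of myelin and mature oligodendrocytes, a list added after the values were seen, were also higher. Of 11 measured, 5 were higher and 0 lower in Sox2-positive cells, with a median difference of 0.60. Their mean log2 value per array ran from 6.07 to 7.07 in Sox2-positive pools and from 5.67 to 5.81 in Sox2-negative pools, and 4 of them lay below 5.80 in both fractions. Like Sirt2 it was highest in Sox2-positive pool 2 and lowest among these in pool 1, as was the mean of the oligodendrocyte progenitor list. In the Sox2-negative pools the myelin order (5.71, 5.68, 5.67 and 5.81) was not that of Sirt2. Ugt8a, the enzyme that makes the lipid galactosylceramide of myelin, was 3.29-fold higher and Cnp, a myelin-associated enzyme, 3.27-fold higher. The oligodendrocyte progenitor list, with Olig1 16.1-fold and Olig2 10.9-fold higher, had mean values of 8.21 to 8.85 in Sox2-positive and 5.98 to 6.18 in Sox2-negative pools. Astrocyte markers had 8 of 11 higher and 0 lower, with a median difference of 1.24 and mean values of 6.89 to 7.58 against 6.07 to 6.15. Slc1a3, a glutamate transporter, was 4.46-fold higher and Clu, a secreted chaperone, 3.02-fold higher. The part of these cells in the Sirt2 difference was not tested.

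No other sirtuin was called higher. Sirt1, a nuclear deacetylase of histones and p53, was at 7.04, 7.23, 7.02 and 6.97 in Sox2-positive pools and at 7.32, 7.49, 7.45 and 7.38 in Sox2-negative pools. The groups did not overlap, and Sirt1 fell by 0.35 (SE 0.09, adjusted p = 0.0294). The call ended on dropping pool 1, 3 or 4 of the Sox2-positive arrays, or pool 2, 3 or 4 of the Sox2-negative ones (adjusted p = 0.0516 to 0.0927). Sirt5, a mitochondrial enzyme that removes succinyl and malonyl groups, had values of 6.45 to 6.77 in Sox2-positive and 6.14 to 6.32 in Sox2-negative pools. These groups did not overlap either, but the difference of 0.32 missed the threshold (adjusted p = 0.0526). It passed with the replicate block (adjusted p = 0.0438), on leaving out dim genes (0.0369) and with array weights (0.0281). Under the other 11 alternatives Sirt5 was not called, with adjusted p up to 0.16. Sirt3, Sirt4, Sirt6 and Sirt7 had differences between -0.12 and 0.08, none past the test.

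Of the 11 Hdac genes only Hdac2 was called in the limma test (9.09%), where 8.47% of all genes were called in either direction. Hdac2, a class I deacetylase of the NuRD, Sin3 and CoREST corepressors, was at 7.62, 7.65, 7.71 and 7.77 in Sox2-positive pools and at 7.94, 8.19, 8.09 and 7.89 in Sox2-negative pools. It fell by 0.34 without overlap of the groups (SE 0.09, adjusted p = 0.0364), the call nearest the threshold among the members. The call ended without any one of the arrays except Sox2-negative pool 4 (adjusted p = 0.0536 to 0.103). Hdac1, which forms dimers with Hdac2, was at 7.21 to 7.54 and 7.16 to 7.63 in the fractions (difference 0.04, 95% interval -0.21 to 0.30). Hdac3, of the NCoR corepressor, had a difference of 0.11, and the class II genes Hdac4, Hdac5, Hdac6, Hdac7, Hdac9 and Hdac10 lay between -0.25 and 0.12.

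Histone demethylases leaned lower as a class, with 13 of 16 (81.25%) below 0 against 58.7% of all genes, and a median of -0.15. Of them 2 were called lower and 0 higher, against 2.52% and 5.96% of all genes. Kdm5b, which removes methyl groups from a histone mark of active promoters, had log2 values of 7.54, 7.60, 7.81 and 7.60 in Sox2-positive pools. In Sox2-negative pools it was at 8.02, 8.26, 7.999 and 8.08. It fell by 0.45 without overlap (SE 0.10, adjusted p = 0.00828), and the call held under all 14 alternatives.

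Kdm5a, its closest relative with the same substrate, was at 6.67, 6.60, 6.81 and 6.60 in Sox2-positive and 7.03, 7.15, 6.84 and 7.10 in Sox2-negative pools. Sox2-positive pool 3 and Sox2-negative pool 3 came within 0.03 of each other, but the groups did not overlap. Kdm5a fell by 0.36 (SE 0.10, adjusted p = 0.0322). This call ended on dropping pool 1, 2 or 4 of the Sox2-positive arrays, or pool 1, 2 or 4 of the Sox2-negative ones (adjusted p = 0.0631 to 0.101). Kdm5c, the X-linked member of the same family, was at 7.89 to 8.14 in Sox2-positive and 7.80 to 8.13 in Sox2-negative pools (difference 0.06, 95% interval -0.15 to 0.28).

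Several other demethylases did not pass the test but had an adjusted p below 0.10. Kdm7a, Kdm6b and Kdm1a did not overlap between the groups and had differences of -0.32, -0.31 and -0.29 (adjusted p = 0.0581, 0.0702 and 0.0732). Kdm6b removes the Polycomb mark, and Kdm1a (LSD1) is the demethylase of the CoREST complex. A dimmer probe set of Kdm6b, with both means below 5.80, had a difference of 0.05 (adjusted p = 0.842). Over the alternatives the adjusted p of Kdm6b ran up to 0.455. Kdm7a passed under 5 of the 14 alternatives, among them the replicate block (adjusted p = 0.0439). Under the other 9 it was not called, with adjusted p up to 0.1825. Kdm2a was at -0.32 (adjusted p = 0.0962), with Sox2-positive values of 7.71 to 7.86 and Sox2-negative values of 7.83 to 8.33. Kdm6a, the X-linked relative of Kdm6b and a gene mutated in human medulloblastoma, was at 8.29 to 8.62 and 8.20 to 8.69 (difference 0.02, 95% interval -0.23 to 0.27). With quantile normalization 6 demethylases were called lower.

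Histone methyltransferases also lay mostly below 0, 19 of 24 (79.2%) against 58.7% of all genes, with a median of -0.14. Of them 1 fell and 0 rose, against 2.52% and 5.96% of all genes. Kmt2e, a relative of the MLL methyltransferases that binds methylated histone H3 through a PHD finger, was at 8.23, 8.43, 8.18 and 8.34 in Sox2-positive pools. Its Sox2-negative values were 8.88, 8.87, 8.63 and 8.48. The groups did not overlap, and Kmt2e fell by 0.42 (SE 0.11, adjusted p = 0.0275). The call ended on dropping pool 1, 3 or 4 of the Sox2-positive arrays, or pool 1 or 2 of the Sox2-negative ones (adjusted p = 0.0539 to 0.0941). All 5 Kmt2 genes lay below 0, where 58.7% of all genes did. Kmt2d, an enhancer methyltransferase and a mutated gene in human medulloblastoma, had a difference of -0.13 (95% interval -0.40 to 0.14).

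The Polycomb enzymes Ezh2 and Ezh1 had differences of -0.25 and -0.16, neither past the test. Ezh2 was at 9.34, 9.09, 9.24 and 9.24 in Sox2-positive pools and at 9.60, 9.61, 9.37 and 9.33 in Sox2-negative pools. Its groups overlapped by the value of 1 array on each side (95% interval -0.46 to -0.04, adjusted p = 0.161). DNA replication genes, with which Ezh2 is known to be expressed, had a median of -0.15 with 0 of 12 called by limma (3 at an unadjusted p under 0.05). Tyms, which makes thymidylate, was nearest the threshold at -0.41 (adjusted p = 0.05002). It passed under 5 alternatives, among them the replicate block (0.0242) and quantile normalization (0.0271). The others included dropping pool 4 of the Sox2-positive arrays (0.0341) or pool 3 of the Sox2-negative ones (0.0202). Under the remaining 9 alternatives Tyms was not called, with adjusted p up to 0.151. The mean values of the replication genes were 7.31 to 7.41 in Sox2-positive and 7.42 to 7.72 in Sox2-negative pools, and their part in the Ezh2 value was not tested. Genes of G2 and mitosis went the other way, with a median of 0.21, 1 of 11 called higher and 0 lower. Their part was not tested either.

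Prmt8, a membrane-bound arginine methyltransferase of neurons, had the most negative difference of the class (-0.49) and wide groups. It was at 7.01, 7.08, 6.74 and 7.16 in Sox2-positive and at 7.54, 7.96, 7.05 and 7.41 in Sox2-negative pools, and Sox2-negative pool 3 fell inside the Sox2-positive range. The adjusted p was 0.0821, and 0.0143 without that pool. With the replicate block it was 0.0141. Under 11 of the 14 alternatives Prmt8 stayed uncalled, with adjusted p up to 0.223. Neuronal markers moved in the same direction, with 5 of 12 measured lower and 0 higher. Their mean log2 values were 7.28 to 7.52 in Sox2-positive and 7.60 to 7.93 in Sox2-negative pools, and 3 of them were below 5.80 in both. Within each fraction the mean of these markers was highest in pool 3, where Prmt8 was lowest. Stmn2, a growth cone protein, fell by 0.94 and Rbfox3, the NeuN antigen, fell by 0.73. Their part in the value of Prmt8 was not tested. The remaining Prmt genes lay between -0.21 and 0.13 and the 10 Setd genes between -0.25 and 0.05.

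Acetyltransferases differed little. The 7 Kat genes ranged from -0.22 (Kat6b) to 0.13 (Kat8), and none passed. Of the 5 Ing genes, whose PHD fingers recruit acetyltransferase or deacetylase complexes to methylated histones, Ing4 fell. Ing4, a subunit of the HBO1 acetyltransferase complex, was at 7.69, 7.56, 7.80 and 7.63 in Sox2-positive and at 8.23, 8.27, 8.02 and 7.996 in Sox2-negative pools. The lowest Sox2-negative pool lay above every Sox2-positive one, and Ing4 fell by 0.46 (SE 0.10, adjusted p = 0.00825) under all 14 alternatives. Ing5, the alternative subunit of that complex, had a difference of -0.19 (adjusted p = 0.438).

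Of the 7 bromodomain genes 1 fell and 0 rose, against 2.52% and 5.96% of all genes. Brd1, the scaffold that ties HBO1 and related acetyltransferases to chromatin, was at 6.27, 6.13, 5.86 and 6.27 in Sox2-positive and 6.64, 6.73, 6.43 and 6.56 in Sox2-negative pools. It fell by 0.46 without overlap (SE 0.11, adjusted p = 0.0183). The call ended without Sox2-positive pool 3 (adjusted p = 0.0546) or Sox2-negative pool 1 (adjusted p = 0.0574). Brd9, a subunit of a SWI/SNF variant, was at 6.84 to 7.12 and 6.67 to 6.82 and did not overlap, but its difference of 0.22 did not pass (adjusted p = 0.174). Brd2 and Brd3, which bind acetylated histones, had differences of -0.04 and -0.05.

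**Figure D2:**
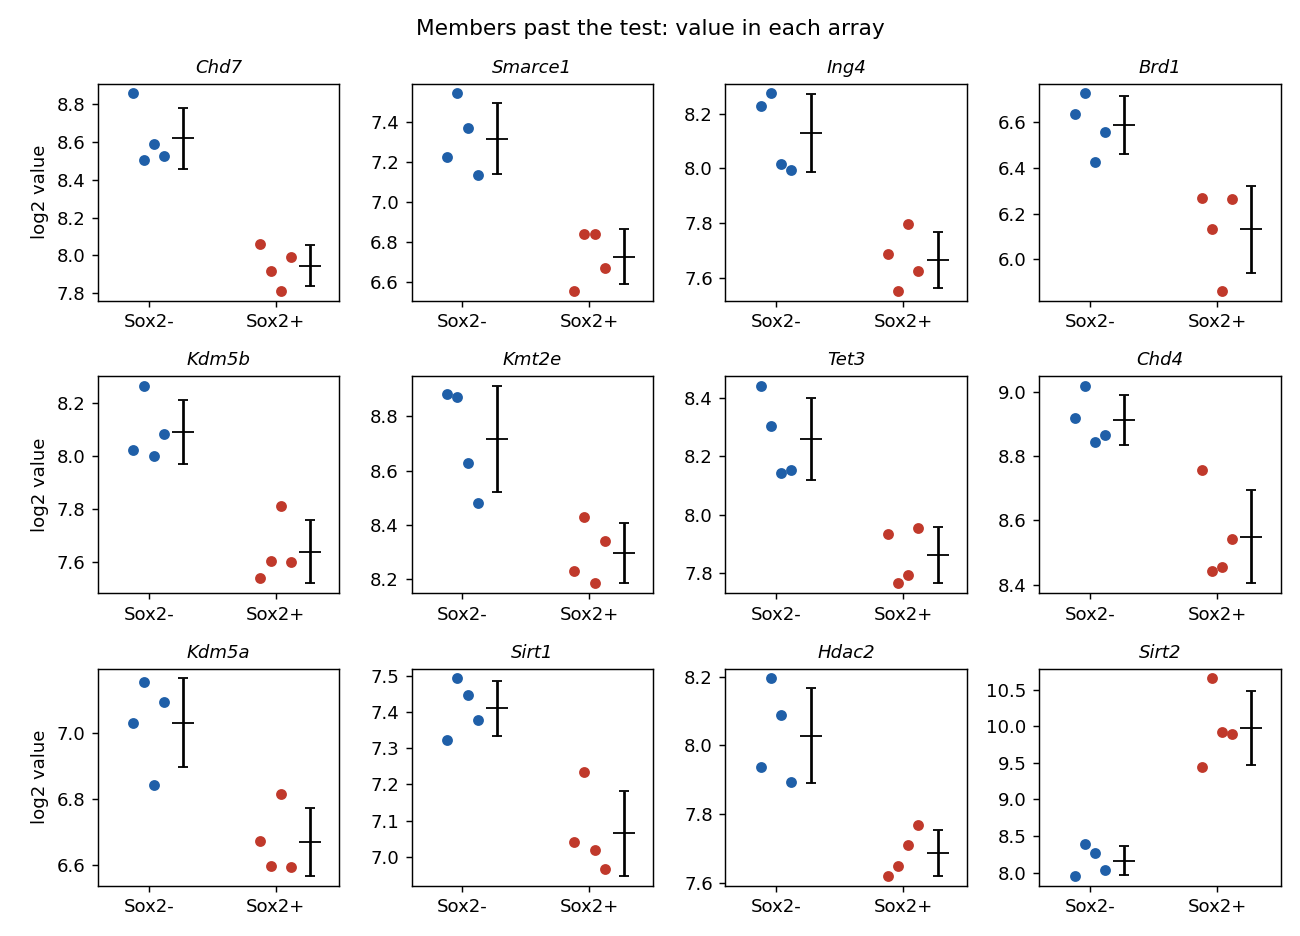
Log2 value of the 12 members past the test in each array (blue Sox2-negative, red Sox2-positive, pools 1 to 4 from left to right), with the mean and SD of each group (n = 4) in black. Vertical axes differ between panels and do not start at 0. The groups of all 12 genes are separate, by 0.03 in Kdm5a and by over 1 in Sirt2.

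Remodeler subunits, a class taken by name as all Smarc, Chd and Arid genes, gave the largest decreases, with a median of -0.13. Not every Arid gene in it encodes a remodeler subunit, and 0 of the 10 Arid genes were called. Of 33 measured 3 were lower and 0 higher, against 2.52% and 5.96% of all genes. Chd7, the remodeler mutated in CHARGE syndrome and needed for cerebellar granule neuron development in mice, had log2 values of 8.06, 7.92, 7.81 and 7.99 in Sox2-positive pools. In Sox2-negative pools it was at 8.85, 8.50, 8.59 and 8.53, each above every Sox2-positive value. Chd7 fell by 0.67 (SE 0.10, adjusted p = 0.000648), which left 62.8% of the Sox2-negative level, and kept its call under all 14 alternatives. Granule neuron progenitor markers were also lower as a group, but not in the same order of pools. Chd7 was lowest in Sox2-positive pool 3 and Sox2-negative pool 2, where the mean of these markers was highest in its fraction. Their mean log2 values were 7.82 to 8.14 in Sox2-positive and 8.75 to 9.06 in Sox2-negative pools, led by Cntn2 (difference -1.49) and Nhlh1 (-1.35), and their part in the value of Chd7 was not tested.

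Smarce1, the HMG-box subunit of SWI/SNF known as BAF57, was at 6.55, 6.84, 6.84 and 6.67 in Sox2-positive pools. Its Sox2-negative values, 7.22, 7.54, 7.37 and 7.13, were all higher. Smarce1 fell by 0.59 (SE 0.11, adjusted p = 0.00303), to 66.4% of the Sox2-negative level, under all 14 alternatives. Chd4, the ATPase of the NuRD complex, was at 8.76, 8.44, 8.45 and 8.54 against 8.92, 9.02, 8.85 and 8.87. Sox2-positive pool 1 came closest to the other group without reaching it. Chd4 fell by 0.36 (SE 0.09, adjusted p = 0.0293). This call ended on dropping pool 2, 3 or 4 of the Sox2-positive arrays, or pool 1 or 2 of the Sox2-negative ones (adjusted p = 0.0663 to 0.100).

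The 2 ATPases of SWI/SNF had differences of opposite sign that did not pass the test. Smarca4 (BRG1), mutated in human medulloblastoma, was at 8.85 to 9.13 in Sox2-positive and 8.86 to 9.39 in Sox2-negative pools (difference -0.20, 95% interval -0.45 to 0.05). Smarca2 (BRM) was at 8.13 to 8.39 and 7.66 to 8.23 (difference 0.27, 95% interval 0.01 to 0.52, adjusted p = 0.226). Smarcb1, the core subunit lost in rhabdoid tumours, had a difference of 0.23 (adjusted p = 0.219). Of the 10 Arid genes 9 lay below 0 (90% against 58.7% of all genes), and 0 were called. Among the 9, Arid4a (-0.002), Arid5a (-0.03) and Arid4b (-0.13) changed sign under some alternatives. Arid5b, a DNA-binding partner of a demethylase, was the exception above 0, at 0.36. Its values, 6.16 to 6.54 against 5.77 to 6.15, did not overlap (adjusted p = 0.0760, and 0.0285 with the replicate block). Under 12 of the 14 alternatives Arid5b was not called, with adjusted p up to 0.2155. Smarca1, of the ISWI remodelers, had a difference of 0.29 (adjusted p = 0.0687), but both its means lay below 5.80.

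Among the enzymes of DNA methylation Tet3 fell and no other member of the 8 passed, where 2.52% of all genes were called lower and 5.96% higher. Tet3, which oxidizes methylcytosine, was at 7.93, 7.77, 7.79 and 7.96 in Sox2-positive and at 8.44, 8.30, 8.14 and 8.15 in Sox2-negative pools. The groups did not overlap, and Tet3 fell by 0.40 (SE 0.10, adjusted p = 0.0192). The call ended on dropping pool 2 or 3 of the Sox2-positive arrays, or pool 1 of the Sox2-negative ones (adjusted p = 0.0604 to 0.0691). Tet1 had a difference of -0.23 and Tet2 of 0.02. Dnmt1, which copies methylation after replication, was at 8.36 to 8.58 and 8.34 to 8.50 (difference 0.06, 95% interval -0.13 to 0.24). The de novo enzymes Dnmt3a and Dnmt3b had differences of 0.15 and -0.19. Dnmt3aos, an antisense transcript, and the symbols Smarca5-ps and Brd8dc are members by name only, and without them the count of lower calls was 11 of 115.

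Close relatives can take each other's place in a complex, so the within-array difference of each of 33 pairs of nearest relatives was compared between the fractions. The pairs were listed after the values had been seen. In 8 pairs the within-array differences did not overlap between the fractions, and each gave the smallest p that an exact permutation test of 4 against 4 arrays allows (0.0286, two-sided). After adjustment over the 33 pairs this was 0.118, so no pair passed. The largest gap was between Sirt2 and Sirt3 (1.94). Chd7 was lower relative to Chd8 by 0.53, and Kdm5b relative to Kdm5c by 0.51 on the log2 scale. Smarca2 was higher relative to Smarca4 by 0.47, Kdm1b relative to Kdm1a by 0.42 and Hdac1 relative to Hdac2 by 0.39. Kmt2e and Setd5 (gap 0.28), and Kat2a and Kat2b (gap 0.19), made up the other pairs. The gap between Kdm5a and Kdm5b was 0.09 (exact permutation p = 0.286), and that between Ezh1 and Ezh2 was also 0.09 (exact permutation p = 0.343).

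**Figure D3:**
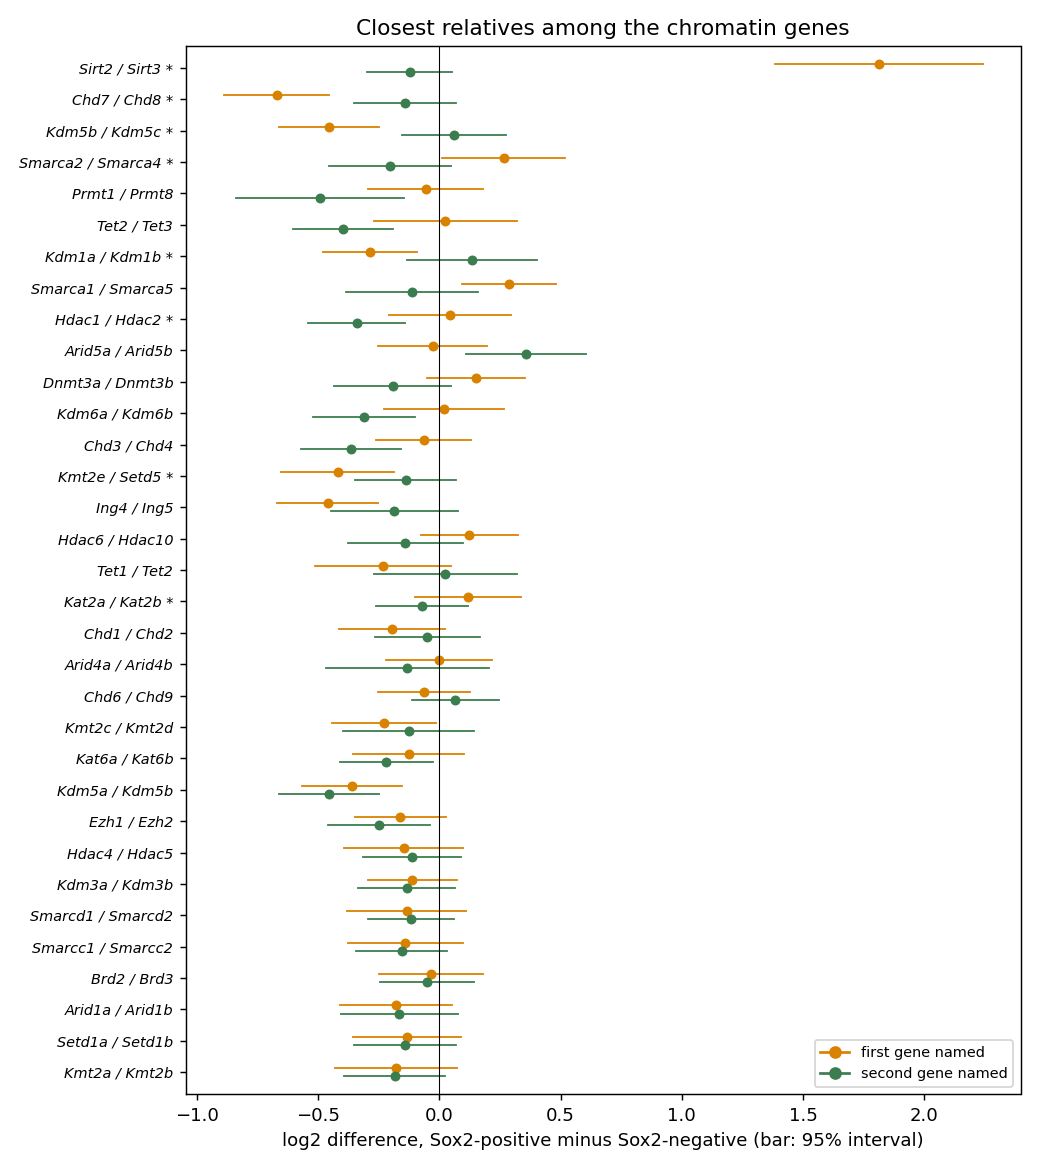
Log2 difference (Sox2-positive minus Sox2-negative) of both members of 33 pairs of close relatives, ordered by the gap between them, with 95% intervals from the limma fit. An asterisk marks the 8 pairs whose within-array difference did not overlap between the fractions. The widest gap is that of Sirt2 and Sirt3 at the top.

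Partner proteins outside the named families were taken from lists by complex. Of 27 partners of SWI/SNF and other remodelers 6 were lower and 1 higher, against 2.52% and 5.96% of all genes, with a median difference of -0.16. Cecr2, which pairs with ISWI ATPases, fell by 0.68 (SE 0.11, adjusted p = 0.00107). Bcl11a, a zinc finger protein found with SWI/SNF, fell by 0.62 (SE 0.15, adjusted p = 0.0174), a call that ended with the mean of its probe sets (adjusted p = 0.115) and on dropping pool 2 or 3 of the Sox2-positive arrays, or pool 1 of the Sox2-negative ones (0.0527 to 0.0615). Actl6b, the actin-related subunit of the neuronal form of SWI/SNF, fell by 0.56 (SE 0.12, adjusted p = 0.0104). The 1 partner called higher was Dpf1, which rose by 0.37 without overlap of the groups (SE 0.11, adjusted p = 0.0426). That call ended with array weights and on dropping at least 1 array. The list kept 3 lower members when pool 1 of the Sox2-negative arrays, or pool 2 or 3 of the Sox2-positive ones, was dropped.

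Corepressor and coactivator partners had 3 of 28 lower and 0 higher, against 2.52% and 5.96% of all genes. The count of lower genes was 3 under all 14 alternatives. Rcor2, a CoREST scaffold that holds Kdm1a, fell by 0.80 (SE 0.11, adjusted p = 0.000331). Jade3 and Brpf1, scaffolds of HBO1 and related acetyltransferases as Brd1 is, fell by 0.45 and by 0.43 (adjusted p = 0.0101 and 0.00762). Their relatives Jade1, Jade2 and Brpf3 had differences of 0.04, 0.24 and -0.12 and were not called, with both means of Jade2 below 5.80. Kat7 (HBO1 itself) had a difference of 0.06 (adjusted p = 0.836). Crebbp and Ep300, acetyltransferases outside the Kat name, had differences of -0.23 and -0.13, not past the test.

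Polycomb subunits had 1 of 29 higher and 1 lower, against 5.96% and 2.52% of all genes. Phf19, a PRC2 accessory subunit, was 1.45-fold higher (adjusted p = 0.0204), with both means below 5.80 and overlapping groups, and Mtf2, a related subunit, fell by 0.36 (adjusted p = 0.0215). Both calls ended on dropping pool 3 of the Sox2-positive arrays, or pool 1 of the Sox2-negative ones, that of Phf19 also without Sox2-positive pool 2 (0.0592 to 0.0697) and that of Mtf2 also without Sox2-positive pool 4 (0.0516 to 0.0708). The PRC2 core genes Eed and Suz12 had differences of -0.13 and -0.06. Of 26 other lysine methyltransferases and COMPASS subunits 1 was lower and 0 higher, against 2.52% and 5.96% of all genes. This was Ehmt1, a methyltransferase of a repressive histone mark, which fell by 0.32 (adjusted p = 0.0339), a call that ended without any one of the arrays except Sox2-negative pool 3 (0.0525 to 0.107). Of 14 readers and partners of DNA methylation 0 were called in the limma test, and 5 had an unadjusted p under 0.05. The largest difference there was that of Uhrf2, at -0.31 (adjusted p = 0.0553). It was called with the replicate block (adjusted p = 0.0424), quantile normalization (0.0205), without dim genes (0.0390) and on dropping pool 3 of the Sox2-negative arrays (0.0309). Under the other 10 alternatives Uhrf2 was not called, with adjusted p up to 0.163.

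The arrays of a fraction did not contribute evenly. Over the 118 members, the median deviation from the mean of the 8 arrays was 0.14 in Sox2-negative pool 2 and 0.08 in Sox2-negative pool 1, but 0.01 and -0.01 in pools 3 and 4. The Sox2-positive pools lay at -0.04, -0.02, -0.10 and -0.05. Over all genes the same medians ran from -0.03 to 0.02. By these medians, Sox2-negative pools 1 and 2 and Sox2-positive pool 3 carried more of the members' lean towards lower values in Sox2-positive cells than the other arrays. The share of members below 0, 72.0% with all 8 arrays, was 72.9% without Sox2-negative pool 1 and 72.0% without Sox2-positive pool 3. Members below 0 made up between 67.8% (without Sox2-negative pool 2) and 77.1% (quantile normalization) over the 14 alternatives.

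**Figure D4:**
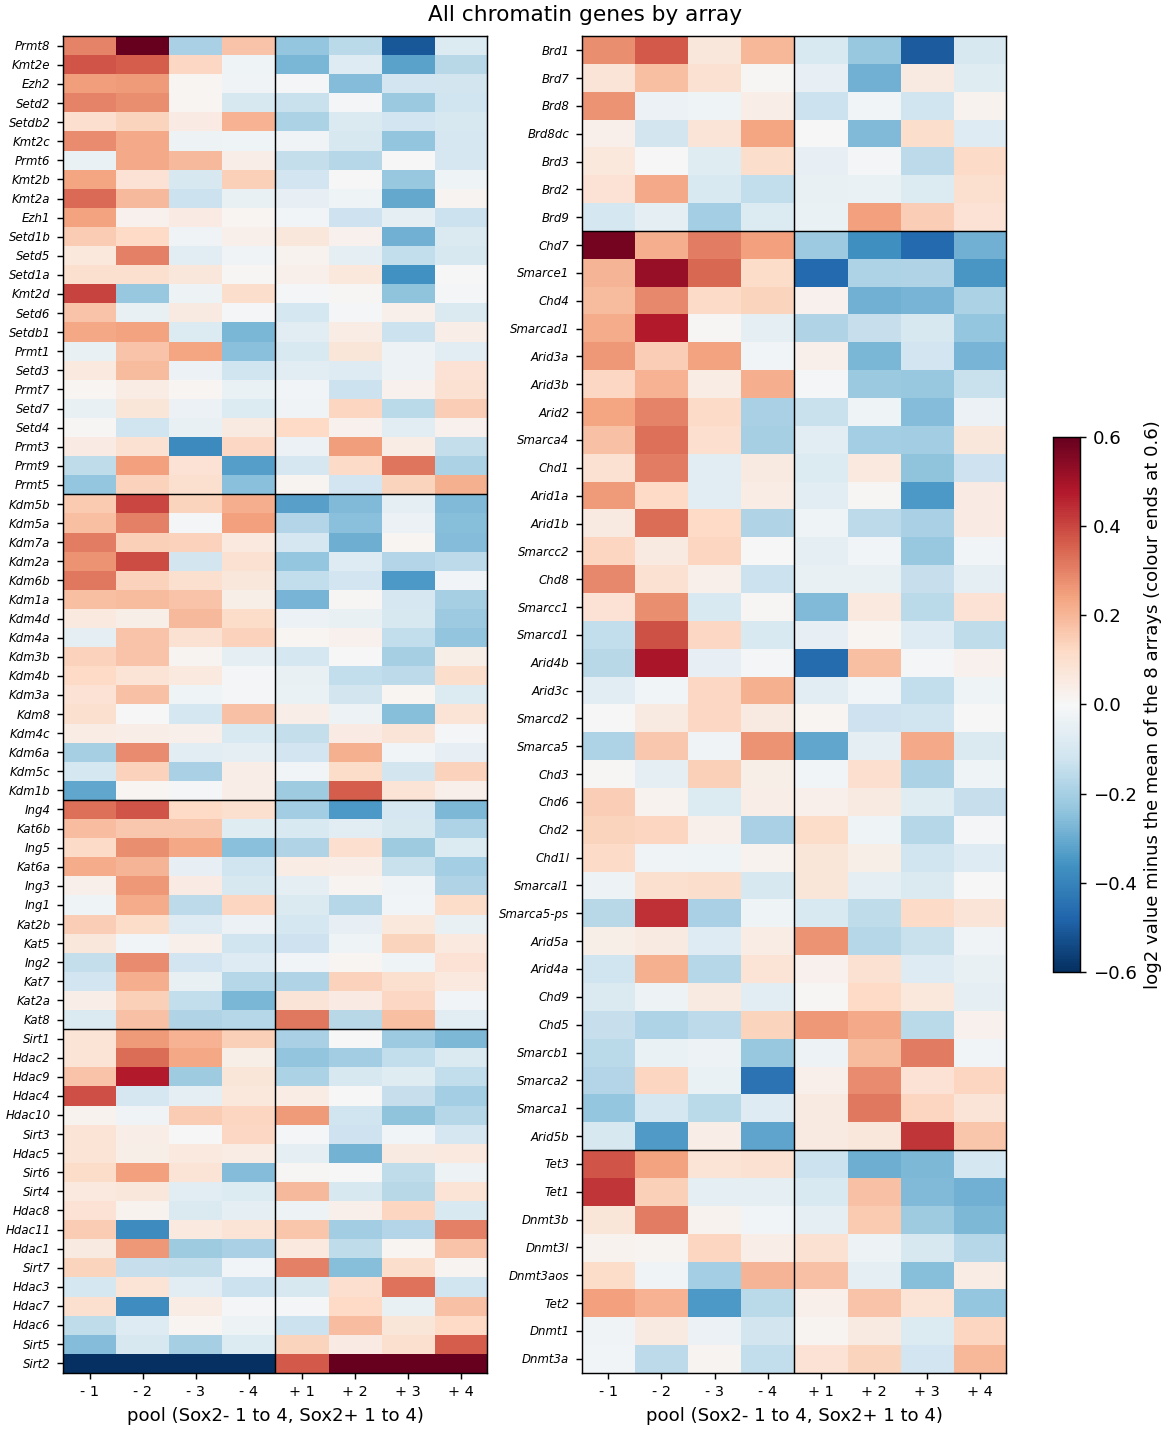
Log2 value of each of the 118 members in each array, minus the gene's mean over the 8 arrays, by class (lines) and ordered within a class by the difference. Colours end at 0.6 in either direction. Most rows are redder in the Sox2-negative pools, above all pools 1 and 2, and Sirt2 shows the opposite at the foot of the left panel.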

How the data were processed

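RNA from 8 pools of sorted cells was measured on Affymetrix arrays. The authors deposited log2 values per probe set. Per the submitters' processing notes these came from RMA in Affymetrix Expression Console (version 1.2.0.20). RMA corrects background and equalizes array distributions, which removes a difference in total RNA and compresses changes of dim genes. The range of 2.51 to 13.6 fits a log2 scale, and no build or detection call is given in the sources used here.

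Of 41345 probe sets, 23521 had 1 gene symbol in the platform annotation. The probe set with the highest mean was taken for each of 22180 genes, with no filter on low values, so all 118 members were tested. Symbols of the rule without such a probe set (among them Kat14, Kdm2b, Prmt2 and Smarcd3) were not analysed here. The number of arrays limits the precision.

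Groups came from the sample titles. Each gene was tested by limma (version 3.58.1, under R 4.3.3, functions lmFit and eBayes, group only, two-sided, Benjamini-Hochberg adjustment over all 22180 genes). Exact permutation tests used scipy 1.17.1. The procedure was tested on simulated data. Equal replicate numbers correlated at 0.165, 0.114, 0.177 and 0.241 in their deviations from group means. Unequal numbers reached 0.161, above the lowest of these. The labels state no pairing and these values do not settle it, so the block was kept as an alternative.

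Members, classes and lists were chosen with earlier results of these data known. The text names every called member, the largest difference of a class with no call, and Ezh2, Kdm6a, Kmt2d, Smarca4, Chd7, Hdac2 and Dnmt1; 1 further gene of this rule is not reported here. From partner lists it names up to 3 called genes and from marker lists up to 2, or the largest difference. Other members, relatives and partners are named to place these, chosen after their values were seen. For endothelial cells and pericytes 1 of 10 genes was called, Rgs5 (difference 0.37), for astrocytes 8 of 11, led by Slc1a3 (2.16) and Clu (1.60), for microglia 0 of 10 (largest Ctss, -0.26). Of G2 and mitosis genes 1 of 11 was called, Ube2c (0.34), and of replication genes 0 of 12 (largest Tyms, -0.41). Alternatives were the mean of probe sets, quantile normalization, leaving out dim genes, a variance trend, array weights, the replicate block and leaving out each array.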

Additional observations from a re-analysis of the deposited data

Results flagged for a closer look

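In groups of 4 arrays, a value was singled out when its gap to the nearest other array exceeded 0.829 of the group's range (Dixon's 95% limit). Chance gives about 1 in 20 groups, and 13 of 286 groups tested had one, so their number is near that of chance. Arid5a stood at 4.8 in Sox2-negative pool 3, with the other 3 arrays at 4.92 to 4.93. Chd5 stood at 6.13 in Sox2-negative pool 4, with the other 3 arrays at 5.81 to 5.86. Chd8 stood at 6.68 in Sox2-positive pool 3, with the other 3 arrays at 6.76 to 6.77. Ezh1 stood at 7.27 in Sox2-negative pool 1, with the other 3 arrays at 7.04 to 7.08. Ing2 stood at 5.02 in Sox2-negative pool 2, with the other 3 arrays at 4.59 to 4.66. Kat6b stood at 7.34 in Sox2-negative pool 4, with the other 3 arrays at 7.58 to 7.6. Kdm1a stood at 8.24 in Sox2-negative pool 4, with the other 3 arrays at 8.38 to 8.4. Kdm1b stood at 5.83 in Sox2-negative pool 1, with the other 3 arrays at 6.13 to 6.18. Kdm4c stood at 6.9 in Sox2-negative pool 4, with the other 3 arrays at 7.02 to 7.04. Kmt2d stood at 6.92 in Sox2-positive pool 3, with the other 3 arrays at 7.15 to 7.17. Olig2 stood at 9.85 in Sox2-positive pool 3, with the other 3 arrays at 9.02 to 9.15. Prmt3 stood at 6.28 in Sox2-negative pool 3, with the other 3 arrays at 6.72 to 6.79. Setd1a stood at 6.51 in Sox2-positive pool 3, with the other 3 arrays at 6.87 to 6.93. Of these genes only Olig2 passed the limma test.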

How the results depend on the processing

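No call changed direction under the 14 alternatives. The differences of 26 members changed sign under some of them, 0 of these called and none larger than 0.13 as reported, among them Kdm6a (-0.07 to 0.12), Hdac1 (-0.02 to 0.14) and Dnmt1 (-0.04 to 0.10). Of the 12 called members 5 kept their calls in all of them, and 7 lost them in some, each by leaving out an array. With quantile normalization 847 of all genes were lower, and 60.2% of all calls were higher against 70.3% as deposited. There 19 chromatin genes were lower and 2 higher, with methyltransferases 2, demethylases 6, acetyltransferases and ING readers 2 and remodelers 5 lower, and 1 remodeler higher. Polycomb subunits, other lysine methyltransferases and DNA methylation readers had 2 lower each. Without dim genes 2 chromatin genes were higher (2 deacetylases), 4 demethylases and 1 DNA methylation reader were lower, Polycomb had 0 higher and the other lysine methyltransferases 1 higher. With array weights 2 chromatin genes were higher (2 deacetylases), with 0 SWI/SNF partners and 1 other lysine methyltransferase. With the replicate block 3 chromatin genes were higher (2 deacetylases and 1 remodeler) and 14 lower, 2 methyltransferases, 2 Polycomb subunits and 1 DNA methylation reader were lower, and 2 SWI/SNF partners and 1 other lysine methyltransferase were higher. The block ended no member's call. Among marker genes Rgs5 lost its call with the mean of its probe sets (adjusted p = 0.252) and without Sox2-positive pool 4 (0.0571), and Ube2c under 9 alternatives (up to 0.283). The cause of these shifts was not tested.

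Leaving out 1 array at a time gave 995 to 1334 higher and 309 to 591 lower among all genes. Chromatin genes had 1 to 2 higher and 5 to 11 lower. Lower calls ran from 0 to 2 in methyltransferases, 1 to 3 in demethylases, 0 to 1 in deacetylases, bromodomain proteins and DNA methylation enzymes, and 2 to 5 in remodelers, which had 0 to 1 higher. Polycomb subunits had 0 to 1 higher and 0 to 2 lower, SWI/SNF partners 0 to 1 higher and 3 to 6 lower, other lysine methyltransferases 0 to 1 higher and 0 to 2 lower, and DNA methylation readers 0 to 1 lower. Signal near that of receptor genes limits the 16 members whose means both lay below 5.80.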

Other observations

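For 7 members a dimmer probe set was also on the array, and none of these passed the limma test. The brighter and dimmer probe sets differed by 0.10 or less in Chd3 (-0.07 and 0.03), Chd8 (-0.14 and -0.21) and Hdac11 (0.04 and 0.05). For Smarcd1, a SWI/SNF subunit, the dimmer probe set had the larger difference, -0.36 against -0.13. For Kdm6b it was 0.05 against -0.31, with both means of the dimmer set below 5.80, and for Arid3b -0.16 against -0.30. The differences of Chd5, a neuronal CHD remodeler, had opposite signs, 0.17 and -0.11, and neither passed.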
